A study of Mus musculus with 3 samples.

Results

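The selenocysteine synthesis and insertion machinery was followed through 10 genes in RNA sequencing of mouse stomach corpus organoids. The members were the rows of the deposited table whose symbol is Sephs1, Sephs2, Pstk, Sepsecs, Secisbp2, Secisbp2l, Eefsec, Trnau1ap, Scly or Trit1. All 10 symbols were found once among 56691 rows, and all 10 passed a filter of at least 1 FPKM (fragments per kilobase of exon, scaled to library size) in at least 1 library, which 13351 genes passed. Organoids are epithelial structures grown in a gel matrix, here in a medium for proliferation, and each culture carries the further label P5. There were 3 groups of 1 library each. The Gpx4 KO-Mist1+ culture came from Gpx4F/F;Mist1Cre/ERT2;RFPLSL mice. The Mist1+ and Mist1- cultures, whose genotype label is WT, came from Mist1Cre/ERT2;RFPLSL mice. All mice were about 8 weeks old and all carried the Cre recombinase driven from Mist1, a transcription factor gene of secretory cells, and the red fluorescent reporter. The number of mice behind each culture is not given in the sources used here. Each group is 1 library, so differences were set against counting error alone and no p-value is given.

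Selenocysteine is the selenium-containing relative of cysteine that sits in the active site of glutathione peroxidases and thioredoxin reductases. It is read from a UGA codon, which otherwise ends translation, when the mRNA carries a hairpin called the SECIS element. The amino acid has no synthetase of its own: it is built on its own tRNA, from serine, and a dedicated elongation factor brings it to the ribosome. In gastric epithelium as elsewhere, the selenoprotein Gpx4 reduces lipid hydroperoxides in membranes and thereby protects cells from ferroptosis.

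One member is itself read through such a UGA codon. Sephs2 makes selenophosphate, the selenium donor, and is a selenoprotein, whereas its paralog Sephs1 is not. The coding sequences below, from GENCODE M21 on GRCm38, show the codon at which they part, in capitals, with 45 bases each. For Sephs2 the window is chr7:127273710-127273754 on the minus strand and the capitals are codon 63, annotated there as selenocysteine. For Sephs1 it is chr2:4884476-4884520 on the plus strand and the capitals are codon 29, the codon aligned to it.
Sephs2: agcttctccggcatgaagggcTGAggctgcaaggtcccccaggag
Sephs1: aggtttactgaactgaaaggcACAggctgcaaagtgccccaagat
The windows had the same base at 31 of 45 positions, and 68.2% of bases were the same over 391 aligned codons. Sephs2 held 1 in-frame TGA and Sephs1 held no in-frame stop codon before its end. The counts used here are reads on each mRNA and do not show whether the UGA was read as selenocysteine.

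The libraries held 16396693 counts for Gpx4 KO-Mist1+, 16187378 for Mist1+ and 14943918 for Mist1-, of which the 10 genes took 6846, 7786 and 6653. All 9 markers of gastric epithelium reached 1 FPKM in every library, and the 6 fibroblast markers summed to 0.12 FPKM or less. Of 7 chief cell markers, 3 (Pga5, Lipf and Chia1) had no count in any library. Gpx4 stood at 90.9 FPKM in the library labelled Gpx4 KO-Mist1+, against 71.6 in Mist1+ and 171 in Mist1-. The count of the gene labelled as deleted was thus not lower than in Mist1+. A whole-gene count also takes in exons outside the floxed stretch, so it does not check the deletion, and directions drawn from that library belong to its label. In such bulk RNA, fewer cells of a type and less RNA per cell cannot be told apart.

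The selenium donor gene Sephs2 had the highest FPKM of the 10 in every library, and the other 9 lay between 3.58 and 17.6 FPKM. FPKM divides by the length of all annotated exons of a gene. That length is 5925 bases for Sephs1, 4549 for Scly and 2710 for Trnau1ap, whose longest coding transcripts have 2933, 2202 and 1130. For Sephs2 both are 2177 bases. Ranks, shares and ratios between genes therefore hold for the annotated length only. The intervals given here are exact Poisson 95% intervals that cover counting error only. Sephs2 stood at 38.1 FPKM (36.1 to 40.2) in Gpx4 KO-Mist1+, 43.5 (41.3 to 45.7) in Mist1+ and 48.3 (45.9 to 50.7) in Mist1-, above about 90.5%, 91.4% and 90.6% of the genes that passed the filter. It made up 35.3%, 34.7% and 37.6% of the summed FPKM of the 10 genes, which came to 108, 125 and 128.

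Sephs1, whose product resembles Sephs2 but is not known to make the selenium donor, stood at 11.2 FPKM (10.6 to 11.9) in Gpx4 KO-Mist1+, 15.2 (14.4 to 16.01) in Mist1+ and 13.0 (12.3 to 13.8) in Mist1-. Its intervals did not overlap between any 2 libraries. Per exonic length, Sephs2 mRNA was 3.39 times Sephs1 (3.13 to 3.68) in Gpx4 KO-Mist1+, 2.86 times (2.66 to 3.07) in Mist1+ and 3.71 times (3.44 to 4.01) in Mist1-. The genes differ in length, and log2 ratios of Mist1+ against Mist1- followed length, as given below. With that trend removed Sephs2 stood at 0.13 and Sephs1 at -0.16, in place of -0.15 and 0.21. No direction is therefore given for this ratio between Mist1+ and Mist1-. Scly encodes the lyase that takes selenium back from free selenocysteine. It stood at 4.34 FPKM (3.88 to 4.84) in Gpx4 KO-Mist1+, 6.03 (5.48 to 6.62) in Mist1+ and 4.55 (4.06 to 5.09) in Mist1-, so Mist1+ was the highest and the intervals of the other libraries overlapped.

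The tRNA steps involve Trit1, Pstk and Sepsecs. Trit1 adds an isopentenyl group beside the anticodon of several tRNAs, that of selenocysteine among them. Its FPKM was 11.3 (10.2 to 12.5) in Gpx4 KO-Mist1+, 12.6 (11.5 to 13.9) in Mist1+ and 12.9 (11.7 to 14.2) in Mist1-, all with overlapping intervals. Pstk phosphorylates the serine that is first loaded on this tRNA. It stood at 4.51 FPKM (4.15 to 4.89) in Gpx4 KO-Mist1+, 3.58 (3.26 to 3.92) in Mist1+ and 5.73 (5.31 to 6.18) in Mist1-, and no intervals overlapped. Sepsecs then replaces the phosphate with selenium. It had 7.02 FPKM (6.54 to 7.52) in Gpx4 KO-Mist1+, 6.82 (6.35 to 7.32) in Mist1+ and 3.83 (3.46 to 4.22) in Mist1-, which made Mist1- the low library of the 3.

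The count of Pstk is less certain than the others. Its exonic length in the table, 7914 bases, is that of all its annotated transcripts in M21, whose longest coding one has 1135 bases, and 4652 of the 7914 bases lie on exons of Ikzf5, a gene on the other strand. Ikzf5 had 82 counts in Gpx4 KO-Mist1+, 129 in Mist1+ and 157 in Mist1-, beside 585, 458 and 678 for Pstk. The table also has the gene within the span of Fgfr2, on the other strand, with 1149, 611 and 317 counts. Whether counting used the strand is not given in the sources used here, so how reads on shared stretches were assigned is not known. Shared exonic bases were computed for Ikzf5 and not for Fgfr2, whose overlap is one of spans. The FPKM of Pstk is a value per annotated length only.

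The insertion factors bind the tRNA or the SECIS element. Trnau1ap, a protein that associates with the selenocysteine tRNA, stood at 8.44 FPKM (7.61 to 9.34) in Gpx4 KO-Mist1+, 9.60 (8.70 to 10.6) in Mist1+ and 17.6 (16.3 to 18.9) in Mist1-. Mist1- was the high library, and the other intervals overlapped. Secisbp2, the main SECIS-binding protein, stood at 5.96 FPKM (5.42 to 6.54) in Gpx4 KO-Mist1+, 7.59 (6.98 to 8.24) in Mist1+ and 6.25 (5.67 to 6.87) in Mist1-, so Mist1+ lay above the others, whose intervals overlapped. Its paralog Secisbp2l had 7.66 FPKM (7.20 to 8.14) in Gpx4 KO-Mist1+, 8.99 (8.49 to 9.51) in Mist1+ and 3.96 (3.62 to 4.33) in Mist1-, where it was lowest. Eefsec, the elongation factor for the selenocysteine tRNA, stood at 9.41 FPKM (8.54 to 10.3) in Gpx4 KO-Mist1+, 11.2 (10.3 to 12.2) in Mist1+ and 12.2 (11.2 to 13.3) in Mist1-, and Mist1+ overlapped with both others.

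**Figure D1:**
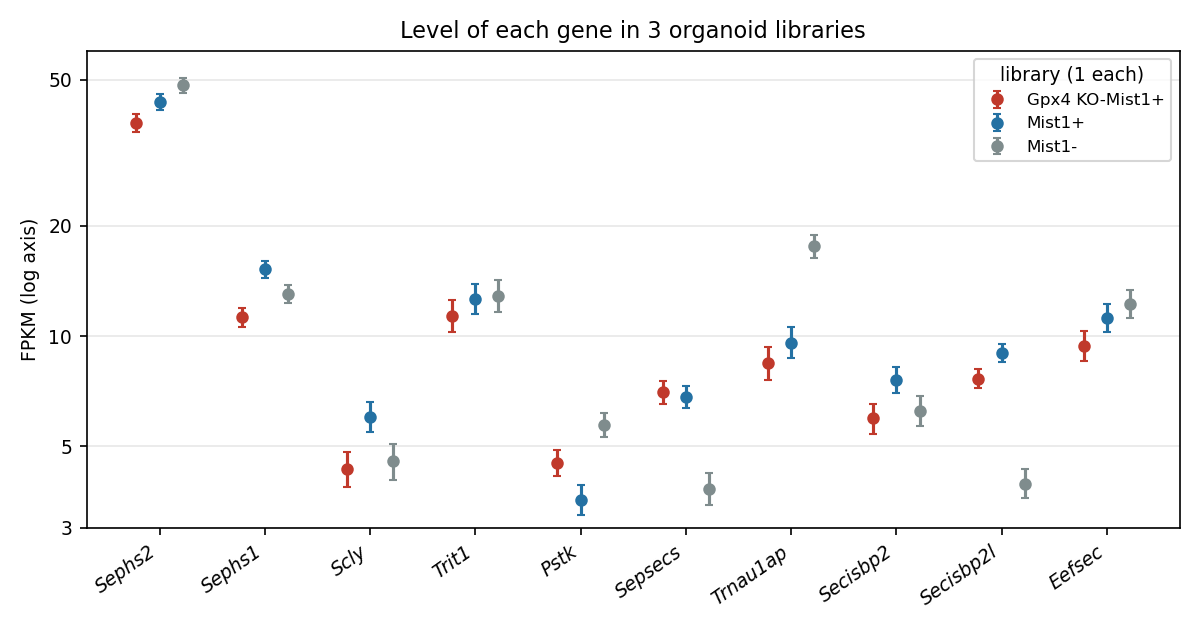
FPKM (log axis) of the 10 genes, ordered by role from selenium donor to elongation factor, in the Gpx4 KO-Mist1+, Mist1+ and Mist1- libraries. Points are single libraries and bars are 95% Poisson intervals for counting error. Sephs2 lies at 38.1 to 48.3, above every other gene, while Trnau1ap is higher and Sepsecs and Secisbp2l are lower in Mist1- than in the other libraries.

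The order of the levels below Sephs2 differed between libraries. In Gpx4 KO-Mist1+ Trit1 (11.3 FPKM) and Sephs1 (11.2) followed with overlapping intervals, and Pstk (4.51) and Scly (4.34) came last, also overlapping. In Mist1+ Sephs1 (15.2) came next, apart from Trit1 (12.6), and Pstk (3.58) was last, apart from Scly (6.03). In Mist1- Trnau1ap (17.6) came next, apart from Sephs1 (13.0), and the lowest neighbours, Scly (4.55), Secisbp2l (3.96) and Sepsecs (3.83), overlapped in turn. In FPKM, 1 of the 10 genes was highest in Gpx4 KO-Mist1+ (Sepsecs), 4 in Mist1+ and 5 in Mist1-. The lowest FPKM lay in Gpx4 KO-Mist1+ for 7, in Mist1- for Sepsecs and Secisbp2l and in Mist1+ for Pstk. Both tallies depend on the scaling. On TPM, which brings the FPKM of each library to 1 sum, Sephs2, Trit1 and Eefsec were higher in Mist1+ than in Mist1-, and Sephs1, Scly, Trit1 and Secisbp2 were higher in Gpx4 KO-Mist1+ than in Mist1-.

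Most members varied little over the 3 libraries. The range of log2(FPKM + 1) had a median of 0.40 over the 10 genes, against 0.70 over the 13351 genes that passed the filter, and 7 of 10 lay below that median of all genes. Trit1 had the smallest range, 0.17, which was above only 4.34% of those genes. Secisbp2l had the widest at 1.01, followed by Trnau1ap at 0.98 and Sepsecs at 0.73. Only Secisbp2l spanned 2-fold on this scale, as did 27.7% of all genes that passed.

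The cultures labelled Mist1+ and Mist1- share a genotype and differ in their Mist1 label. The mRNA of Mist1 itself, under its symbol Bhlha15, stood at 10.25 FPKM (580 counts) in Mist1+ and 5.40 (282 counts) in Mist1-. In Gpx4 KO-Mist1+ it stood at 6.46 FPKM (370 counts), nearer to Mist1- than to Mist1+. The labels thus do not stand for presence and absence of Mist1 mRNA in these libraries. Secisbp2l and Sepsecs were higher in Mist1+, and Trnau1ap and Pstk were lower. A fold is the ratio of 2 counts, each divided by its column total, with an exact 95% interval from the binomial split of both counts. Secisbp2l had 1196 counts in Mist1+ and 487 in Mist1-, a fold of 2.27 (2.04 to 2.52). Sepsecs had 771 and 400 counts, a fold of 1.78 (1.57 to 2.01). Trnau1ap had 421 counts in Mist1+ and 711 in Mist1-, a fold of 0.547 (0.483 to 0.618), and Pstk had 458 and 678, a fold of 0.624 (0.553 to 0.703). The intervals of these 4 genes did not hold 1.

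The other 6 genes lay closer together. Scly had a fold of 1.33 (1.14 to 1.54), Secisbp2 of 1.21 (1.07 to 1.38) and Sephs1 of 1.17 (1.08 to 1.26). Sephs2 had a fold of 0.901 (0.840 to 0.968). For Eefsec, at 0.918 (0.810 to 1.04), and Trit1, at 0.981 (0.854 to 1.13), the interval held 1. In all, 5 intervals lay above 1, 3 below and 2 held 1. Intervals above 1 were found for 44.9% of the 13351 genes and below 1 for 28.6%. With FPKM rescaled to a common sum the log2 ratio of Sephs2 was 0.18 instead of -0.15, and those of Trit1 and Eefsec also turned positive, so no direction is given for these 3. That of Sephs1 was 0.21 and turned to -0.00 after median ratio scaling.

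Calls were made at 2-fold on the log2 ratio of FPKM plus 1. By this rule 1 member was called in Mist1+ against Mist1-, Secisbp2l, which was higher with a log2 ratio of 1.01, and 13.6% of all genes were called, 7.88% higher and 5.73% lower. At 1.5-fold 2 members were higher (Secisbp2l and Sepsecs at 0.70) and 1 was lower (Trnau1ap at -0.81), against 23.7% and 15% of all genes, or 38.7% in either direction. The share of members called was near that of all genes under both rules. Members had a median log2 ratio of 0.09, and all genes that passed one of 0.15, and 5 members were above 0.

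**Figure D2:**
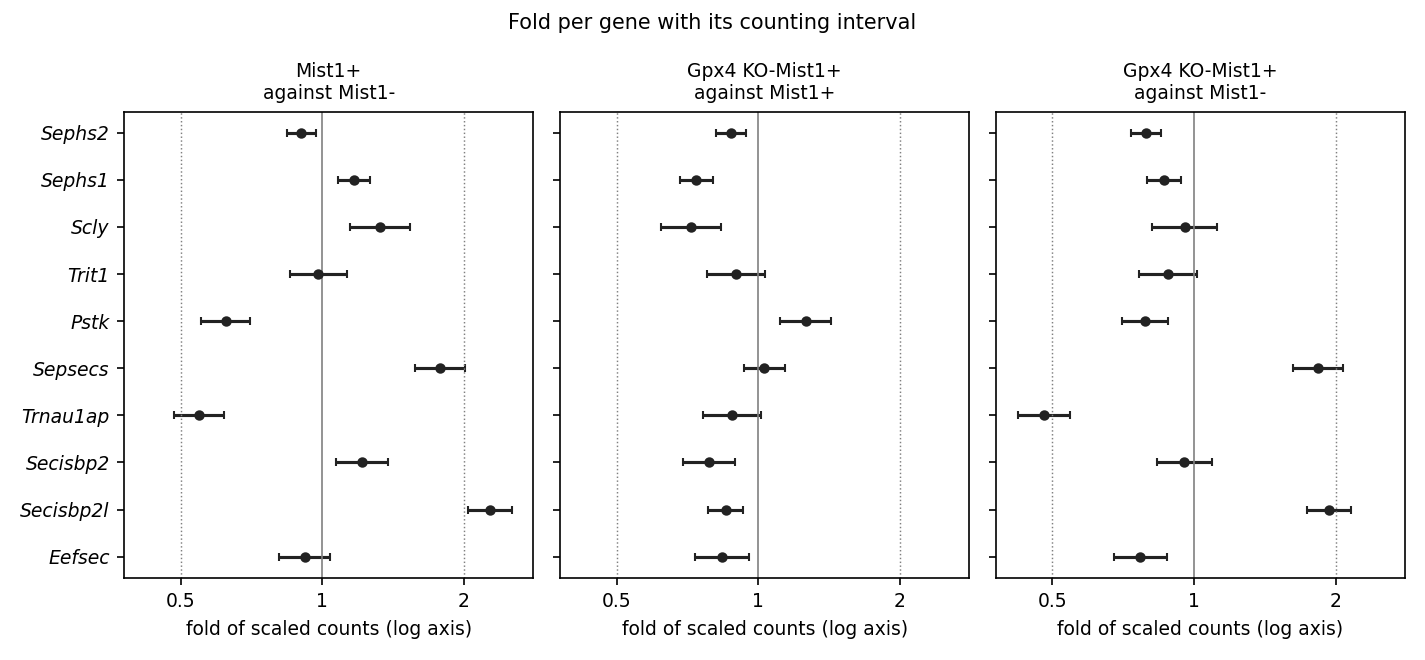
Fold of counts scaled to the column totals (log axis) for each of the 10 genes in the 3 comparisons, with exact 95% intervals for counting error; dotted lines mark 0.5 and 2. Secisbp2l (2.27) and Trnau1ap (0.547) lie furthest apart in Mist1+ against Mist1-, while in Gpx4 KO-Mist1+ against Mist1+ the folds stay between 0.720 and 1.26.

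This pair of libraries differed by transcript length, which bears on the members. Across the 13351 genes log2 ratio and exonic length had a Spearman rho of 0.49, as a description over genes of 2 libraries. The median log2 ratio was -0.23 among the 2669 genes of 1562 to 3029 bases, which include Sephs2, Trit1, Trnau1ap and Eefsec, and 0.63 among the 2670 genes of at least 6954 bases, which include Sepsecs, Pstk and Secisbp2l. Secisbp2l has an exonic length of 8222 bases and Sepsecs of 6982. With the length trend removed, the log2 ratio of Secisbp2l was 0.47 in place of 1.01 and that of Sepsecs 0.24 in place of 0.70. Trnau1ap, at 2710 bases, kept -0.68 of -0.81. At its annotated 7914 bases Pstk lay against the trend, at -1.08 in place of -0.56, lower than all but 3.06% of genes by that measure. Its longest coding transcript has 1135 bases, and genes of up to 1560 bases had a median log2 ratio of -0.36. The trend-removed value of Pstk is therefore as uncertain as its length. Sephs2 and Trit1 turned from -0.15 and -0.03 to 0.13 and 0.27, and Sephs1 from 0.21 to -0.16. What lies behind the trend was not tested.

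**Figure D3:**
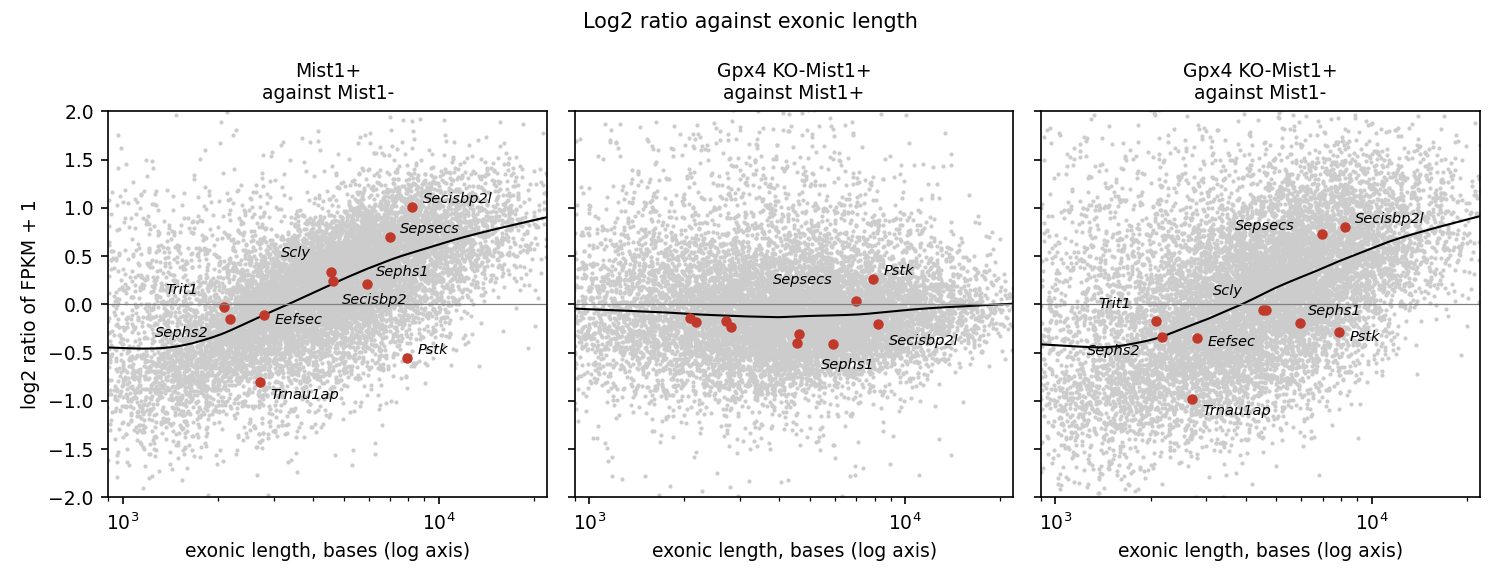
Log2 ratio of FPKM + 1 against exonic length in bases (log axis) for genes that passed the filter (grey, axes cropped), the 10 genes (red) and the lowess trend (black line), in the 3 comparisons. The trend climbs with length in the comparisons with Mist1- and is nearly flat for Gpx4 KO-Mist1+ against Mist1+. Pstk, drawn at its uncertain annotated length of 7914 bases, lies below the trend in both comparisons with Mist1-, at -0.56 for Mist1+ against Mist1-.

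Within a library, the balance of paired members differed between Mist1- and the other libraries. Per exonic length, Secisbp2l was 1.29 times Secisbp2 (1.15 to 1.44) in Gpx4 KO-Mist1+ and 1.18 times (1.07 to 1.31) in Mist1+, against 0.634 times (0.556 to 0.724) in Mist1-. Sepsecs was 1.56 times Pstk (1.40 to 1.74) in Gpx4 KO-Mist1+ and 1.91 times (1.70 to 2.15) in Mist1+, against 0.669 times (0.590 to 0.758) in Mist1-. Trnau1ap was 0.897 times Eefsec (0.779 to 1.03) in Gpx4 KO-Mist1+ and 0.855 times (0.750 to 0.975) in Mist1+, against 1.44 times (1.28 to 1.61) in Mist1-. On these exonic lengths, the ratios of Secisbp2l to Secisbp2 and of Trnau1ap to Eefsec lay on opposite sides of 1 in Mist1- and Mist1+. Which of Sepsecs and Pstk was the more abundant is not settled, since the length and count of Pstk are uncertain, and only the difference of their ratio between libraries is given. Trnau1ap and Eefsec have similar exonic lengths, 2710 and 2801 bases, whereas Secisbp2l is the longer of its pair (8222 against 4626 bases). The longest coding transcripts, however, have 1130 bases for Trnau1ap and 2679 for Eefsec, and 6797 for Secisbp2l and 3328 for Secisbp2. The side of 1 on which a ratio lies thus depends on the length used. Its fold between libraries does not depend on the length divided by, but the length trend bears on pairs of unlike length. With that trend removed, Secisbp2l and Secisbp2 had log2 ratios of 0.47 and 0.03 in Mist1+ against Mist1-. These stood at 1.01 and 0.24 before.

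**Figure D4:**
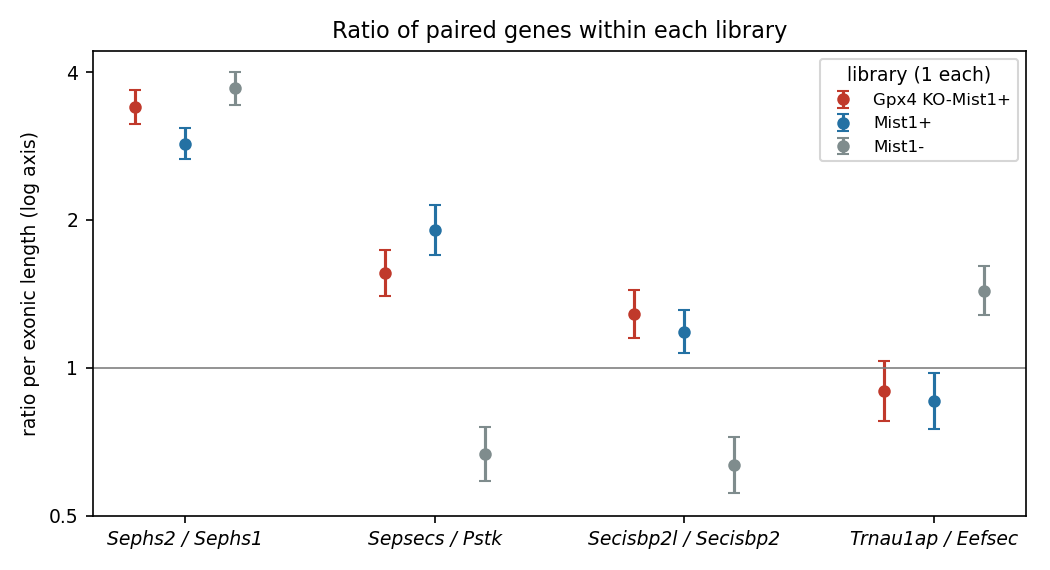
Ratio of paired genes per exonic length (log axis) in each library, with exact 95% intervals for counting error; the line marks 1. The ratios of Sepsecs to Pstk and of Secisbp2l to Secisbp2 lie above 1 in Gpx4 KO-Mist1+ and Mist1+ and at 0.669 and 0.634 in Mist1-, and that of Trnau1ap to Eefsec is 1.44 in Mist1-.

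Markers of surface pit cells moved with the same comparison. All 4 had counts in every library and 3 of 4 reached 1 FPKM. They summed to 90.4 FPKM in Gpx4 KO-Mist1+ and 98.0 in Mist1+, against 713 in Mist1-. The chief cell markers with counts summed to 2641, 3506 and 2018 FPKM. The part of cell makeup in the differences between the 10 genes was not tested.

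Gpx4 KO-Mist1+ and Mist1+ share their Mist1 label and differ in the floxed Gpx4 allele, whose product is a major client of the machinery. The differences were small, and 6 of the 10 members, like 40.5% of all genes, had an interval below 1. Scly had 324 counts in Gpx4 KO-Mist1+ and 444 in Mist1+, a fold of 0.720 (0.622 to 0.833). Sephs1 had 1092 and 1459 counts, a fold of 0.739 (0.683 to 0.7997), and Secisbp2 had 452 and 568, a fold of 0.786 (0.693 to 0.890). Eefsec at 0.838 (0.735 to 0.954), Secisbp2l at 0.853 (0.784 to 0.927) and Sephs2 at 0.876 (0.814 to 0.943) were also below 1. Pstk went the other way, with 585 counts in Gpx4 KO-Mist1+ and 458 in Mist1+, a fold of 1.26 (1.11 to 1.43). For Trnau1ap (0.879, 0.763 to 1.01), Trit1 (0.897, 0.780 to 1.03) and Sepsecs (1.03, 0.931 to 1.14) the interval held 1.

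No member was called at 2-fold or at 1.5-fold in Gpx4 KO-Mist1+ against Mist1+, whereas 7.55% and 21.9% of all genes were called. At 2-fold those were 4.81% higher and 2.74% lower, and at 1.5-fold 10.6% higher and 11.3% lower. An interval above 1 was found for 1 member, and for 25.2% of all genes. The median log2 ratio was -0.20 over the members and -0.09 over all genes, and 2 members (Sepsecs and Pstk) were above 0, as were 40.7% of all genes. Scaling did not change the sign of any member in this comparison. The Spearman rho with exonic length was -0.02, and with the trend removed the members lay between -0.29 (Sephs1) and 0.36 (Pstk). Markers of mucous neck cells, 3 of 3 with counts, summed to 1451 FPKM in Gpx4 KO-Mist1+ and 697 in Mist1+. Of 6 immune markers only Cd68 reached 1 FPKM, at 24.4 in Gpx4 KO-Mist1+ and 5.06 in Mist1+, while the pan-leukocyte gene Ptprc had 0 counts in Gpx4 KO-Mist1+ and 1 in Mist1+. The part of these in the members' differences was not tested.

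Against Mist1-, the labelled knockout was compared with the other wild-type culture, and the libraries are the same ones as above, so these values are no second observation. Secisbp2l was higher with 1033 counts in Gpx4 KO-Mist1+ and 487 in Mist1-, a fold of 1.93 (1.73 to 2.16), and Sepsecs with 804 and 400, a fold of 1.83 (1.62 to 2.07). Trnau1ap was lower with 375 counts in Gpx4 KO-Mist1+ and 711 in Mist1-, a fold of 0.481 (0.423 to 0.546). Eefsec (0.769, 0.675 to 0.876), Pstk (0.786, 0.703 to 0.880), Sephs2 (0.790, 0.734 to 0.850) and Sephs1 (0.864, 0.795 to 0.939) had intervals below 1, and Trit1 (0.880), Secisbp2 (0.954) and Scly (0.956) had intervals that held 1. Sephs1, Trit1, Secisbp2 and Scly had log2 ratios above 0 once FPKM were rescaled to a common sum.

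By log2 ratios no member was called at 2-fold in Gpx4 KO-Mist1+ against Mist1-, where 20.2% of all genes were, 11.6% higher and 8.56% lower. Trnau1ap, at -0.98, was just short of the cutoff. At 1.5-fold 2 members were higher and 1 was lower, against 25.6% and 20.1% of all genes, or 45.7% in either direction. The median was -0.18 over the members and 0.09 over all genes. The rho with length was 0.39, and with the trend removed Secisbp2l stood at 0.33, Sepsecs at 0.36 and Trnau1ap at -0.76. Pstk stood at -0.74, a value that rests on its uncertain length. Exact intervals lay above 1 for 2 members and below 1 for 5, while 42.4% and 34.3% of all genes had such intervals.

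The clients of the machinery are the selenoprotein mRNAs, whose summed FPKM was higher in Mist1- than in the other libraries. Of 24 selenoprotein genes, Sephs2 among them, 20 passed the filter. The 23 other than Sephs2 summed to 1182 FPKM in Gpx4 KO-Mist1+ and 1174 in Mist1+, against 2019 in Mist1-. That was 10.9, 9.38 and 15.7 times the summed FPKM of the 10 machinery genes. The FPKM of all rows also summed highest in Mist1- (379460, against 310243 and 302663). The size of the difference in summed selenoprotein FPKM thus depends on the scaling. The peroxidase gene Gpx2 alone stood at 481, 457 and 851 FPKM. Between Mist1+ and Mist1-, 4 of 20 had log2 ratios of -1 or less, as did 5.73% of all genes, and 0 had 1 or more. The 4 became 1 on TPM and 6 after median ratio scaling. The median was -0.31 beside the 0.15 of all genes, -0.51 after median ratio scaling and -0.03, with 10 above and 10 below 0, on TPM. Selenow, a small selenoprotein of the thioredoxin-like fold, stood at 72.9 FPKM in Mist1+ and 197 in Mist1-, a log2 ratio of -1.42. Gpx4 had -1.24 and Gpx1, the cytosolic glutathione peroxidase, -1.07. Selenoi, the ethanolamine phosphotransferase gene, had the highest value, 0.46. With the length trend removed the median was -0.31 as well, and 0 of the 20 reached 2-fold.

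For Gpx4 KO-Mist1+ against Mist1+, 0 of the 20 selenoprotein genes reached 2-fold, where 7.55% of all genes did. The median of the 20 was -0.04, which turned to 0.05 after median ratio scaling. Selenom was at 4.57 FPKM in Gpx4 KO-Mist1+ and 2.42 in Mist1+, a log2 ratio of 0.70 from 111 and 58 counts. Gpx4 (0.34) and Selenop, the secreted selenium carrier (0.25), were next. Selenos, an endoplasmic reticulum protein of the degradation pathway, was lowest at -0.66, followed by the methionine sulfoxide reductase gene Msrb1 (-0.62) and Selenoh (-0.53). Set against Mist1-, Gpx4 KO-Mist1+ had 5 of the 20 at -1 or less, as had 8.56% of all genes, and 0 at 1 or more. The 5 became 3 on TPM, 7 after median ratio scaling and 1 with the length trend removed. The median there was -0.42, with Selenoh at -1.59 and Selenos at -1.40.

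Of 4 genes for proteins that bind selenoprotein mRNAs and so affect how the UGA is read, 3 had log2 ratios below 0 in Mist1+ against Mist1-, or 2 of 4 on TPM. Eif4a3, which competes for the SECIS element, stood at 34.4 FPKM in Gpx4 KO-Mist1+ and 53.3 in Mist1+, against 79.1 in Mist1-. The fold was 0.674 (0.634 to 0.716) for Mist1+ against Mist1- and 0.645 (0.599 to 0.694) for Gpx4 KO-Mist1+ against Mist1+. Rpl30, a ribosomal protein that binds SECIS, had 107 FPKM in Gpx4 KO-Mist1+ and 88.3 in Mist1+, against 223 in Mist1-; ribosomal protein genes have processed copies, so its counts are uncertain. Rpl30 alone of the 4, which include Ncl and Elavl1, passed 2-fold in Mist1+ against Mist1- (-1.33). Of all genes 5.73% were 2-fold lower there. The list's median was -0.44 there, or -0.12 on TPM, and -0.30 in Gpx4 KO-Mist1+ against Mist1+.

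Genes that load and modify the selenocysteine tRNA outside the 10 members numbered 11, and 0 of them were 2-fold apart in FPKM. The share of all genes was 13.6% in Mist1+ against Mist1-, 7.55% in Gpx4 KO-Mist1+ against Mist1+ and 20.2% in Gpx4 KO-Mist1+ against Mist1-. In Mist1+ against Mist1-, 1 of the 11 was 2-fold higher on TPM and 1 was 2-fold lower after median ratio scaling. After that scaling 1 was also 2-fold lower in Gpx4 KO-Mist1+ against Mist1-. Their median was 0.03 in Mist1+ against Mist1-, or -0.18 after median ratio scaling, and -0.12 in Gpx4 KO-Mist1+ against Mist1+. Sars, the seryl-tRNA synthetase gene that starts the path, was at 49.2 FPKM in Gpx4 KO-Mist1+ and 30.2 in Mist1+, a fold of 1.63 (1.55 to 1.71). Alkbh8, which makes the wobble methylation of this tRNA, reached 4.30 FPKM in Mist1+, against 2.27 in Mist1-, a fold of 1.899 (1.65 to 2.19), or a log2 ratio of 0.13 with the length trend removed. Trmt112 was the lowest of the list there, at 34.8 FPKM in Mist1+ and 62.4 in Mist1-, a fold of 0.558 (0.507 to 0.613). Its log2 ratio was -0.82, or -0.37 with the length trend removed. Of the 11 genes, 6 had log2 ratios above 0 and 5 below 0 in that comparison. The 20 cytosolic aminoacyl-tRNA synthetases, Sars among them, had a median of 0.15 in Gpx4 KO-Mist1+ against Mist1+, with 2 at least 1.5-fold higher (Cars and Sars) and 1 at least 1.5-fold lower (Hars). Of all genes 10.6% were 1.5-fold higher and 11.3% were 1.5-fold lower in that comparison. Neither Pstk nor Sepsecs reached 1.5-fold there.

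Other supply lines differed in single genes. In the mevalonate path that feeds Trit1, Pmvk and Fdps had log2 ratios of -1.12 and -1.05 in Mist1+ against Mist1-. Of all genes 5.73% were 2-fold lower there. On TPM 0 of the 8 genes of the list reached 2-fold, where 26.6% of all genes did. The median of the 8 genes was -0.31, or -0.02 on TPM, and Trit1 itself had -0.03. Mvk was lowest in Gpx4 KO-Mist1+ against Mist1+, at -0.96. Cth, an enzyme of the path that turns selenomethionine into selenocysteine, stood at 15.4 FPKM in Gpx4 KO-Mist1+ and 6.49 in Mist1+. Its fold was 2.37 (2.06 to 2.72). Of 6 genes for selenium uptake and metabolism it was the only one at least 2-fold apart, though not with a pseudocount of 5. Between those 2 libraries 7.55% of all genes were 2-fold apart. The selenoprotein P receptor gene Lrp8 was at 3.62, 3.46 and 2.32 FPKM.

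Genes of nonsense-mediated decay and of general elongation and release were set beside the machinery too. Nonsense-mediated decay removes mRNAs with an early stop, and 8 of its 10 genes had log2 ratios above 0 in Mist1+ against Mist1-, as did 58.8% of all genes. Their median was 0.57, which was 0.92 on TPM and 0.16 with the length trend removed. Its kinase gene Smg1 reached 10.3 FPKM in Mist1+, against 3.06 in Mist1-, a log2 ratio of 1.48, and alone of the 10 passed 2-fold in FPKM. On TPM 5 of the 10 did, and 0 did with the length trend removed or a pseudocount of 5. The shares of all genes were 13.6% in FPKM, 26.6% on TPM, 8.23% with the trend removed and 3.93% at that pseudocount. In Gpx4 KO-Mist1+ against Mist1+ the median was -0.29 and 1 of 10 was above 0, where 40.7% of all genes were. Of 9 general elongation and release factors that passed the filter, Eef1b2 (-1.21) and Eef1d (-1.04) passed 2-fold in Mist1+ against Mist1-, though not on TPM. There 5.73% of all genes were 2-fold lower. The release factor gene Gspt1 was the highest of the 9, at 0.40. Of the 9, 0 reached 2-fold in Gpx4 KO-Mist1+ against Mist1+, where 7.55% of all genes did.

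**Figure D5:**
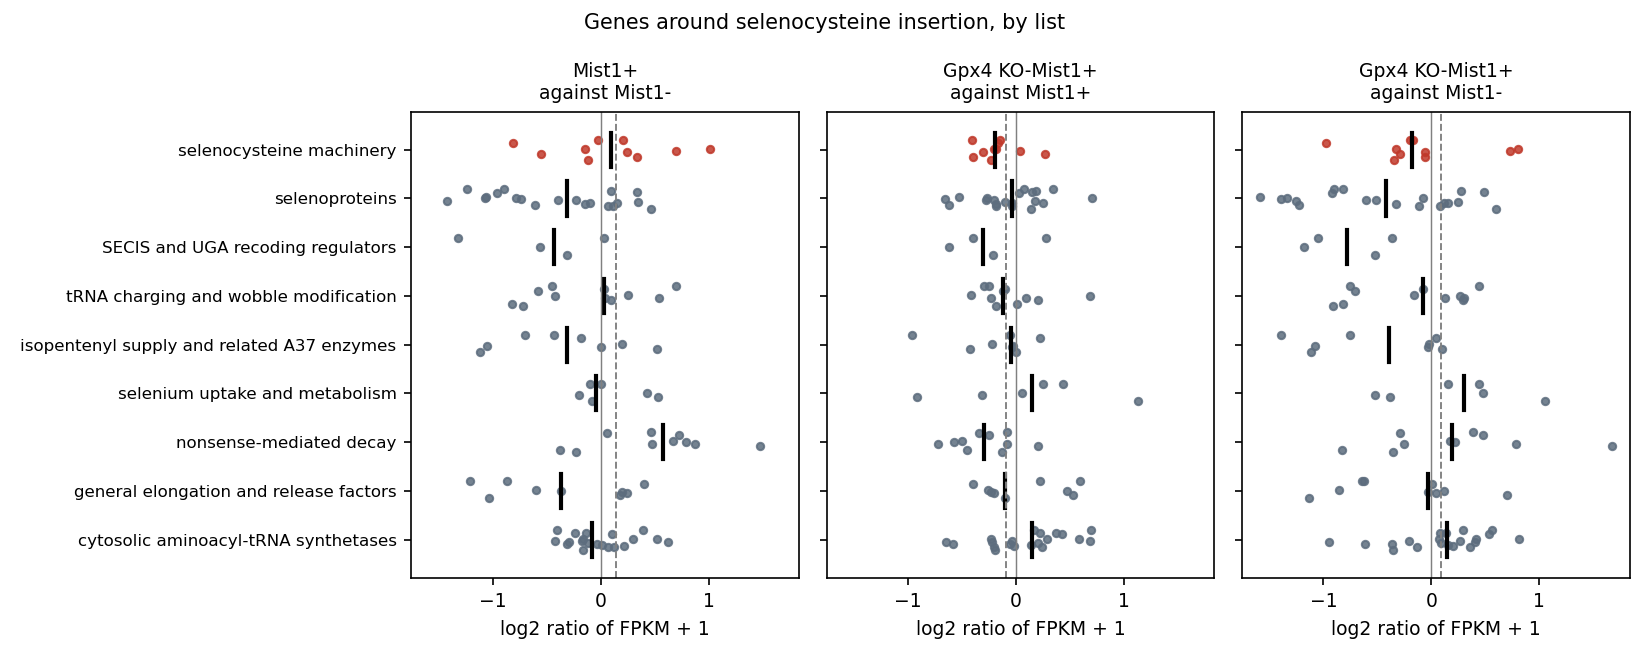
Log2 ratio of FPKM + 1 for each gene that passed the filter in the machinery (red) and in 8 lists of genes around it (grey), in the 3 comparisons; thick bars are list medians and the dashed line is the median of all genes that passed. The machinery median lies at 0.09, -0.20 and -0.18, and the selenoprotein median at -0.31, -0.04 and -0.42.

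Promoters are shown for the member that was highest in every library and for the pair furthest apart between Mist1+ and Mist1-. RefSeq windows on GRCm38.p6, from 250 bases before to 50 bases after the annotated start, were at hand for 9 of the 10 members, Sepsecs being the other, in 10 windows. Capitals mark any match, on either strand, to GGGCGG (a GC box), CCGGAAG (an ETS site), CCAAT (the box bound by NF-Y), TATAAA (the TATA box), the palindrome of NRF1, TGACNNNGC (an antioxidant response core), TGATGNAA (a C/EBP-ATF core) or ACGTG (a hypoxia response and E-box core). The windows are chr7:127274010-127274309 for Sephs2, chr2:125782821-125783120 for Secisbp2l and chr4:132329489-132329788 for Trnau1ap, all on the minus strand and written 5′ to 3′ along the gene.
Sephs2: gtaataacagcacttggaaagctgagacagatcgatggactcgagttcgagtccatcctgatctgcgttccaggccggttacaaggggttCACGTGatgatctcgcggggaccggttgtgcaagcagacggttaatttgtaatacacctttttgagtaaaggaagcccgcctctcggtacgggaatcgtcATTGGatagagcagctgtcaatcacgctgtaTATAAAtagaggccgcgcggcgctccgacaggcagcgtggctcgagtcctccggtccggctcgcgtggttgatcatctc
Secisbp2l: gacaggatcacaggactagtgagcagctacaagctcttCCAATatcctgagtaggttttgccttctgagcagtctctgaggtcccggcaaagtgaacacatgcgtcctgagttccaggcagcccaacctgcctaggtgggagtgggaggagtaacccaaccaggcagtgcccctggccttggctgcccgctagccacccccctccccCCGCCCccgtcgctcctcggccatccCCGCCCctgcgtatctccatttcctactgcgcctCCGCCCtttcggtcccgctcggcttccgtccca
Trnau1ap: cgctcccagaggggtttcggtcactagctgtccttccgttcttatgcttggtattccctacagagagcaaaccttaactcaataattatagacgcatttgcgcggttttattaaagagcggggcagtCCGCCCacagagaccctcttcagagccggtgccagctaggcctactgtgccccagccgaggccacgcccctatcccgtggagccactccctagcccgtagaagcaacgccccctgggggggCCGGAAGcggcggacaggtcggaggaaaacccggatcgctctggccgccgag
Counting from 0 at the annotated start, Sephs2 had TATAAA at -29, a CCAAT match at -60 and ACGTG on both strands at -159 and -160, overlapping as 1 palindrome. Secisbp2l had CCAAT at -212 and GC boxes at -43, -17 and 17, and Trnau1ap had a GC box at -123 and CCGGAAG at -2. Over all 32851 windows, 35.7% held GGGCGG, as did windows of 6 member genes, and 13.6% held TATAAA, which of the members only Sephs2 had. CCGGAAG was in 2 members' windows and 8.86% of all windows, CCAAT in 4 and 37.4%, ACGTG in 2 and 19.6%, and TGATGNAA in 1 and 3.97%. The NRF1 palindrome and TGACNNNGC, in 0.971% and 12.4% of all windows, matched in none of the 10. The 10 windows held 13 to 47 CpG dinucleotides, with a median of 23, against a median of 7 over all windows.

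The 10 genes lie on 7 chromosomes, Sephs2 as a single exon and the rest with 6 to 18 exons in their longest coding transcript. In the deposited annotation 6 of the 10 carry the process term for selenocysteine incorporation, which no other row of the table has, and 4 (Sephs1, Sephs2, Scly and Sepsecs) stand in the KEGG map for selenocompound metabolism. Only 4 of the 10 overlap another row, and beside those at Pstk the overlapping rows had at most 3 counts in a library.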

How the data were processed

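RNA of 3 organoid cultures, 1 per group, was sequenced. Per the submitters' processing notes, the authors used cutadapt 1.9.1, HISAT2 2.2.1 and HTSeq 0.6.1 with GRCm38.p5. Per the file headers, the deposited table gives for each library a count of reads per gene and an FPKM. The deposited FPKM differed from count divided by exonic length and column total by at most 1.59% in Gpx4 KO-Mist1+, 1.34% in Mist1+ and 2.77% in Mist1- over genes with at least 50 counts. Depth was 16396693, 16187378 and 14943918 counts, and intervals cover counting error only. The 2639 rows with a gene identifier but no symbol were kept and held 0.177% of counts in Gpx4 KO-Mist1+, 0.298% in Mist1+ and 0.233% in Mist1-. The start and end in the table equal those of GENCODE M21 for 2.83% of shared identifiers, so positions printed here are from M21, while the exonic lengths of the 10 genes were the same in both.

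The members and the 8 gene lists were chosen with earlier results of these data known. All members are named, and Bhlha15 is named as a check of the labels. From each list, genes among the 3 highest or 3 lowest log2 ratios of a comparison are named, and Gpx2 was named after its values were seen. The filter kept genes that reached an FPKM of 1 in some library. Log2 ratios add a pseudocount of 1, and calls were made at 2-fold. The length trend was removed by lowess (fraction 0.3) of log2 ratio on log length. The intervals, calls and trend removal were tested on simulated counts with 200 genes changed by 4-fold. The settings varied were the pseudocount (0.1 or 5), the filter (none, or an FPKM of 5), TPM (here FPKM rescaled to a common sum), median ratio scaling, CPM, the length trend removed, and cutoffs of 1.5-fold and 4-fold. Trends came from statsmodels 0.14.6, intervals from scipy 1.17.1, tables from pandas 2.3.3 with numpy 2.4.6 and plots from matplotlib 3.10.9, all under Python 3.11.15.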

Additional observations from a re-analysis of the deposited data

How the results depend on the processing

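The number of members called in Gpx4 KO-Mist1+ against Mist1+ was 0 under all 10 alternatives, though the filter changes and the 4-fold cutoff could not have raised it. For Mist1+ against Mist1-, 1 member was called in the main setting, 0 with a pseudocount of 5 or a 4-fold cutoff, 2 on TPM (Secisbp2l and Sepsecs, higher) and 3 at 1.5-fold. With median ratio scaling the 1 call was Trnau1ap, lower, and with the length trend removed it was Pstk, lower, in place of Secisbp2l. That call of Pstk rests on its uncertain length. For Gpx4 KO-Mist1+ against Mist1-, 0 members were called in the main setting, 1 (Trnau1ap, lower) with a pseudocount of 0.1, median ratio scaling or CPM, 2 on TPM (Secisbp2l and Sepsecs, higher) and 3 at 1.5-fold. TPM moved the median log2 ratio of all genes by 0.31 for Mist1+ against Mist1- and by 0.29 for Gpx4 KO-Mist1+ against Mist1-; median ratio scaling moved it by -0.18 and -0.11. Of 240 log2 ratios of single members under 8 alternatives, 187 moved by less than their counting error and 53 by more, and 12, of 8 member comparisons, changed sign, 7 of them on TPM. A change of filter cannot alter the ratio of a member that passes it, as every member did. The ratios under the filter settings thus fell among the 187 by design and are no sign of stability. The cause of the shifts under the other settings was not tested. No paired analysis was possible because each group has 1 library, and no library could be left out for the same reason. Depth limits single folds to intervals such as 0.854 to 1.13 for Trit1, so differences of that size could not be told from counting error. The spread between cultures was not measured, so whether any larger fold exceeds it is not known.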
